A study of Mus musculus with 18 samples.

Results

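The 10 genes described here are the usual class markers of inhibitory interneurons: Pvalb, Sst, Vip, Npy, Cck, Reln, Lamp5, Calb1, Calb2 and Htr3a. They were taken by symbol, each symbol was mapped to 1 Ensembl identifier with GENCODE M21, and they are 10 of the 53468 genes of the count table. Polyadenylated RNA came from the forebrain, midbrain and hindbrain of 3 Fmr1CRE and 3 wild-type mice at postnatal day 25, which gave 18 libraries in 6 groups of 3. Fmr1CRE mice carry a single base change, knocked in by CRISPR/Cas9, in a conserved regulatory element assigned to Fmr1, and the line was made by crossing edited founders to C57BL/6. The wild-type mice came from the same litter and carry no edit, and the labels give no treatment for either genotype. Each library is a whole dissected region of 1 mouse, so the markers were read in all cells of the region together. In such bulk samples, fewer cells of a type and less RNA per cell cannot be told apart.

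Inhibitory interneurons release GABA and control the firing of nearby neurons. In the cortex and hippocampus they fall into classes that were first told apart by the proteins they hold. Cells with parvalbumin (Pvalb) and cells with somatostatin (Sst) come from the medial ganglionic eminence of the embryo, whereas cells with vasoactive intestinal peptide (Vip), Lamp5 or the serotonin receptor subunit Htr3a mostly come from the caudal ganglionic eminence. None of these genes is restricted to interneurons. Cholecystokinin (Cck) is also made by many excitatory neurons, parvalbumin and calbindin (Calb1) by Purkinje cells of the cerebellum, reelin (Reln) and calretinin (Calb2) by cerebellar granule cells, and Vip by the suprachiasmatic nucleus of the hypothalamus.

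Sst, Vip and Cck are classical genes of the cAMP response. Their promoters are shown because they were the markers in which an element of that response was found. In the 250 bases before the RefSeq start site (build GRCm38.p6), the full cAMP response element TGACGTCA was found for Sst, and only the short element TGACG or its reverse complement CGTCA for Vip and Cck. Both strands were searched, and the short element is contained in the full one. The full element was present in 1.55% and the short element in 17.8% of 32851 promoters of the same length. The capitals mark the element and each stretch has 30 bases, written 5′ to 3′ on the strand of the gene.
Sst, chr16:23890874-23890903, minus strand: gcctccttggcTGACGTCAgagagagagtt
Vip, chr10:5639128-5639157, plus strand: gatcactactgTGACGtctttcggggagcc
Cck, chr9:121495723-121495752, minus strand: ctgctggactgCGTCAgcactgggtaaaca
The element began 48 bases before the RefSeq start of Sst, 79 bases before that of Vip and 47 bases before that of Cck. The GENCODE model of Sst starts 114 bases further upstream, so there the Sst element lies within the annotated transcript. Neither form was found in the windows of Npy, Pvalb, Reln and Lamp5. For Calb1, Calb2 and Htr3a no promoter window was available, so they were not searched. A match is a run of letters and was not tested as a site.

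The libraries held between 22455512 and 28061185 counts. Levels are given as CPM, counts scaled to the size of the library with TMM factors, so that a gene can be compared between libraries, and genes are compared with each other only after division by effective length. Fmr1, the targeted gene, had 69.2 to 83.4 CPM in the forebrain, 61.6 to 74.1 CPM in the midbrain and 51.1 to 69.8 CPM in the hindbrain, with overlapping genotypes in each region, so its level does not check the labels. The region labels fitted their markers, with summed Hox genes of the hindbrain at 110 to 142 CPM in hindbrain and at most 0.124 CPM in forebrain libraries, and midbrain dopamine neuron markers at 142 to 199 CPM in midbrain and 16.0 to 40.8 CPM in forebrain libraries. The mouse labels were checked with genes that differed the same way in midbrain and hindbrain, so only the forebrain could come out odd. Between Fmr1CRE replicate 3 and wild-type replicate 3, 15 genes were at least 8-fold higher in both the midbrain and the hindbrain of one mouse. In the forebrain 8 of the 15 were at least 4-fold higher in the other mouse, and 3 in the same mouse. Between the other pairs of mice, 0 to 6 such genes went the opposite way. The highest of these counts was that of wild-type replicate 2 and Fmr1CRE replicate 3, with 6 opposite and 1 the same of 18 genes, and wild-type replicate 2 also had 5 opposite and 4 the same against Fmr1CRE replicate 2, and 3 opposite and 2 the same against wild-type replicate 3. Wild-type replicate 2 also had equal counts, 5 opposite and 5 the same, against wild-type replicate 1, and 3 and 3 against Fmr1CRE replicate 1. Fmr1CRE replicates 1 and 3 had 3 and 3 as well, so equal counts alone do not mark a label as wrong. The forebrain labels of replicate 3 of both genotypes and of wild-type replicate 2 are therefore doubtful, on at most 18 genes per pair. Which label, if any, is wrong was not settled. Forebrain results are also given without both forebrain libraries of replicate 3, or without the mouse of wild-type replicate 2, where a call changes. Fmr1CRE forebrain replicate 1 also stood apart, with summed striatal markers at 609 CPM against 1048 to 1621 CPM in the other 5 forebrain libraries, and GABA neuron genes at 534 CPM against 954 to 1109 CPM.

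The first question was where each marker was expressed. The 4 peptides and Htr3a were lowest in the hindbrain, and the 3 calcium-binding proteins Pvalb, Calb1 and Calb2 were highest there. Lamp5 was lowest in the midbrain, and Reln was lowest in the forebrain. All 10 genes differed between forebrain and hindbrain with an adjusted p under 0.05, where 51.7% of the 20363 genes tested did so. Of the 10, 5 were higher in the forebrain (26.4% of all genes) and 5 lower (25.3%). Between midbrain and hindbrain 9 of the 10 passed against 49.1% of all genes, 5 higher in the midbrain (25.1%) and 4 lower (24%), and between forebrain and midbrain 8 of the 10 passed against 19.3% of all genes. In the forebrain against midbrain comparison 4 markers were higher in the forebrain (9.38% of all genes) and 4 lower (9.96%). The median log2 difference of the 10 between forebrain and hindbrain was 0.32, beside -0.01 over all genes tested. The adjusted p values are those of edgeR's quasi-likelihood test with Benjamini-Hochberg adjustment over all genes, fitted on the 18 libraries as independent samples, although 3 libraries came from each mouse.

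**Figure D1:**
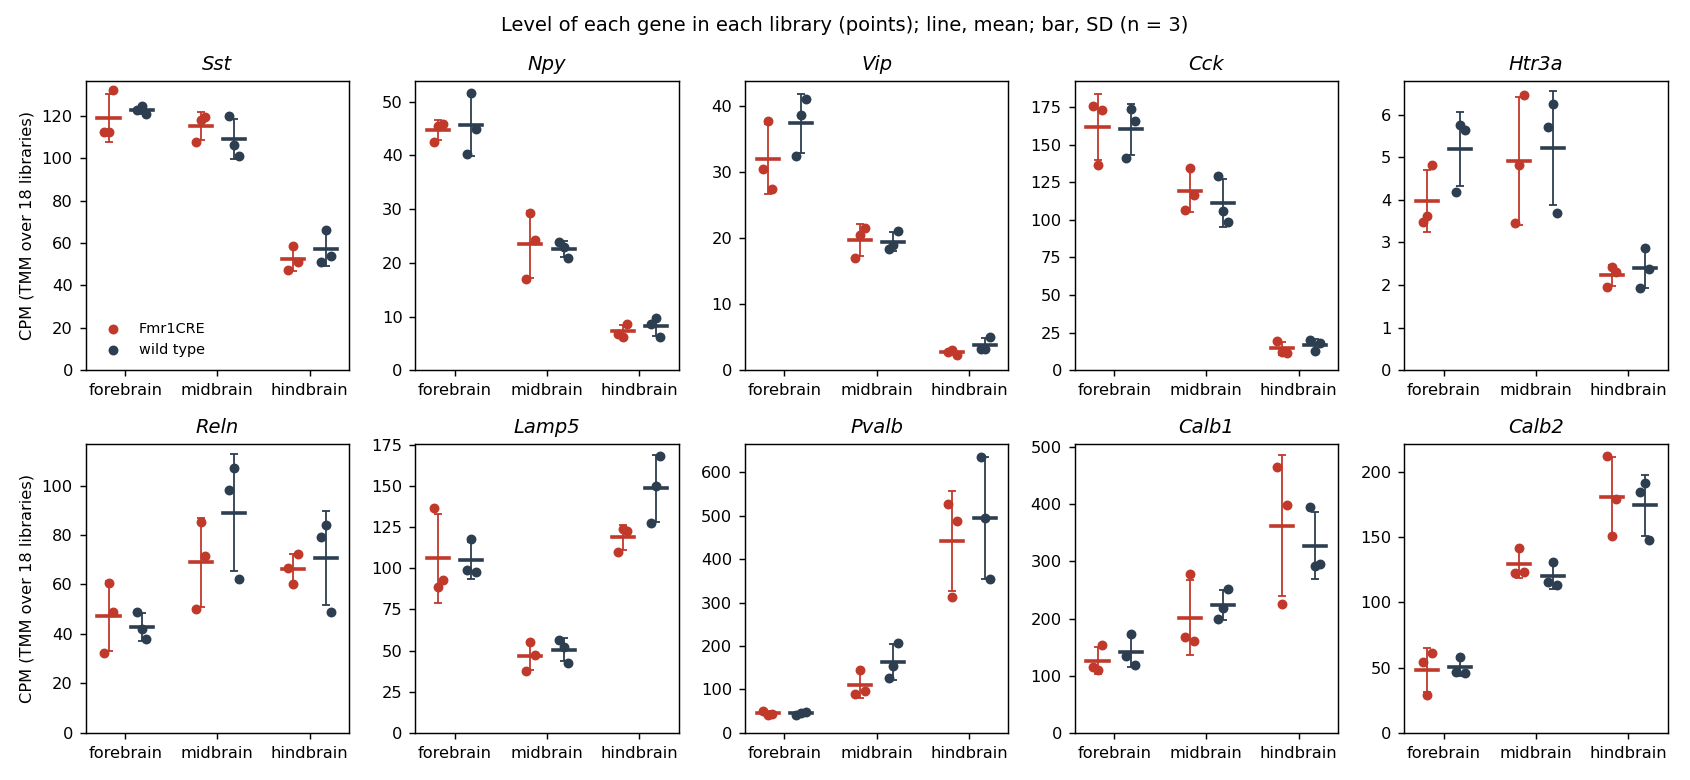
CPM of each marker gene (vertical axes, each from 0) in forebrain, midbrain and hindbrain; each point is a library, red for Fmr1CRE and dark for wild type, with the mean as a line and the SD as a bar (n = 3). Vip, Npy and Cck fall from forebrain to hindbrain, Pvalb rises from 41.1 to 51.5 CPM in the forebrain to 312 to 636 CPM in the hindbrain, and the genotypes overlap in every panel and region except Lamp5 and Vip in the hindbrain.

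Among the peptides, Vip and Cck showed the largest differences between forebrain and hindbrain, of nearly the same size. For Vip the lowest, median and highest values over the 6 libraries of a region were 27.5, 35.1 and 41.1 CPM in the forebrain, 17.0, 19.7 and 21.6 CPM in the midbrain, and 2.36, 3.13 and 5.10 CPM in the hindbrain. The 3 regions did not overlap. The forebrain was 10.7-fold above the hindbrain (log2 difference 3.42, SE 0.14, adjusted p = 1.29e-11) and 1.76-fold above the midbrain (0.82, SE 0.12, adjusted p = 0.000208). Regions that do not overlap were found for 27.7% of all genes between forebrain and hindbrain, 10.5% between forebrain and midbrain and 26.9% between midbrain and hindbrain, beside 8, 6 and 8 of the 10 markers. The hindbrain values rested on 56 to 129 counts per library.

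Cck, the peptide of basket cells that also carry cannabinoid receptors and of many pyramidal neurons, followed the same order. It had 137, 169 and 175 CPM (lowest, median and highest) in the forebrain, 98.7, 112 and 134 CPM in the midbrain, and 11.7, 15.6 and 19.9 CPM in the hindbrain. The forebrain exceeded the hindbrain 10.2-fold (log2 difference 3.36, SE 0.15, adjusted p = 4.09e-11), and the midbrain exceeded the hindbrain 7.33-fold (2.87, SE 0.14, adjusted p = 4.74e-10). The difference between forebrain and midbrain was small, 1.40-fold (0.48, SE 0.13, adjusted p = 0.0183). That call was lost without both forebrain libraries of replicate 3 (adjusted p = 0.0620), and also without the mouse of wild-type replicate 2 (0.0670), wild-type replicate 3 (0.0840) or Fmr1CRE replicate 3 (0.0564). Midbrain libraries also held summed forebrain glutamatergic markers at 1041 to 1868 CPM, beside 2277 to 2447 CPM in the forebrain and 184 to 267 CPM in the hindbrain. The part of these markers in the midbrain level of Cck was not tested.

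Npy, the peptide of neurogliaform and of many somatostatin cells, stepped down by region. It had 40.3, 45.3 and 51.6 CPM in the forebrain, 16.9, 23.5 and 29.2 CPM in the midbrain, and 6.24, 7.68 and 9.71 CPM in the hindbrain. The regions did not overlap, with a forebrain 5.88-fold above the hindbrain (log2 difference 2.56, SE 0.14, adjusted p = 3.95e-10) and 1.96-fold above the midbrain (0.97, SE 0.13, adjusted p = 0.000111). The lowest midbrain value was that of Fmr1CRE replicate 1 and the highest that of Fmr1CRE replicate 2, so the 3 Fmr1CRE midbrain libraries enclosed the 3 wild-type ones.

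Sst, the peptide of Martinotti cells and other dendrite-targeting interneurons, differed little between forebrain and midbrain. It had 112, 122 and 132 CPM in the forebrain, 101, 113 and 120 CPM in the midbrain, and 47.3, 52.6 and 66.3 CPM in the hindbrain. The forebrain and midbrain overlapped (log2 difference 0.11, 95% confidence interval -0.06 to 0.28, adjusted p = 0.371), and the forebrain was 2.21-fold above the hindbrain (1.15, SE 0.08, adjusted p = 8.41e-09). Midbrain libraries also held the forebrain glutamatergic markers given above for Cck. Lhx6, a gene of medial ganglionic eminence interneurons, was at 6.89 to 13.1 CPM in midbrain and 9.48 to 18.4 CPM in forebrain libraries. In hindbrain libraries Lhx6 was at most 0.316 CPM. The part of forebrain tissue in the midbrain level of Sst was not tested. Sst was also steady between libraries. In the forebrain its highest library was 1.18 times its lowest, and 6.92% of genes with a mean of at least 1 CPM had a smaller ratio.

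Htr3a, a subunit of the ion channel opened by serotonin, was scarce in every region. It had 3.48, 4.50 and 5.77 CPM in the forebrain, 3.46, 5.26 and 6.46 CPM in the midbrain, and 1.93, 2.34 and 2.87 CPM in the hindbrain, on 52 to 161 counts per library. The midbrain was 2.19-fold above the hindbrain (log2 difference 1.13, SE 0.18, adjusted p = 0.000107) and the forebrain 1.96-fold above it (0.97, SE 0.18, adjusted p = 0.000330). Forebrain and midbrain overlapped (-0.16, 95% confidence interval -0.54 to 0.22, adjusted p = 0.593). An annotated antisense gene, Gm32335, overlaps the Htr3a locus, and whether it shares reads with Htr3a was not tested.

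Pvalb, the calcium buffer of fast-spiking interneurons, showed the opposite order to the peptides. It had 41.1, 45.6 and 51.5 CPM in the forebrain, 89.9, 136 and 208 CPM in the midbrain, and 312, 491 and 636 CPM in the hindbrain. The hindbrain was 10.2-fold above the forebrain (log2 difference of forebrain minus hindbrain -3.36, SE 0.19, adjusted p = 5.23e-10) and 3.49-fold above the midbrain (midbrain minus hindbrain -1.80, SE 0.18, adjusted p = 6.36e-07). The regions did not overlap. Pvalb was even across the forebrain libraries, but in the midbrain its highest library was 2.31 times its lowest, and 90.5% of genes had a smaller ratio.

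Calb1, the calbindin of many interneurons and of Purkinje cells, rose in the same order with less separation. It had 110, 127 and 173 CPM in the forebrain, 160, 209 and 277 CPM in the midbrain, and 225, 345 and 465 CPM in the hindbrain. The hindbrain was 2.57-fold above the forebrain (forebrain minus hindbrain -1.36, SE 0.18, adjusted p = 1.23e-05) with no overlap. The difference between forebrain and midbrain was 1.58-fold (-0.66, SE 0.18, adjusted p = 0.0172), with overlapping libraries, and the call was lost without the mouse of wild-type replicate 1 (adjusted p = 0.0576) or wild-type replicate 3 (0.0882).

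Calb2, the calretinin of many Vip cells and of cerebellar granule cells, had 28.9, 50.6 and 61.4 CPM in the forebrain, 113, 123 and 142 CPM in the midbrain, and 148, 182 and 212 CPM in the hindbrain. The regions did not overlap. The forebrain was 2.53-fold below the midbrain (-1.34, SE 0.15, adjusted p = 1.91e-05) and 3.61-fold below the hindbrain (-1.85, SE 0.15, adjusted p = 5.06e-08). The midbrain and hindbrain differed 1.43-fold (-0.51, SE 0.15, adjusted p = 0.00903), a call that was lost without the mouse of Fmr1CRE replicate 1 (adjusted p = 0.0559) or wild-type replicate 1 (0.0554). The lowest forebrain value was that of Fmr1CRE replicate 2, at 28.9 CPM, against 45.8 to 61.4 CPM in the other 5.

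Markers of cerebellar cells also differed between the regions and libraries. The sum of 9 Purkinje cell markers was 454 to 763 CPM in forebrain libraries, 828 to 1660 CPM in midbrain libraries and 1384 to 2682 CPM in hindbrain libraries, and 8 of the 9 were lower in the forebrain than in the hindbrain with an adjusted p under 0.05, beside 25.3% of all genes. Pcp2, a gene of Purkinje cells within the brain, was at 0 to 1.36 CPM in forebrain, 25.4 to 90.9 CPM in midbrain and 101 to 238 CPM in hindbrain libraries. The summed level is therefore not particular to Purkinje cells in the forebrain. The sum of 9 granule cell markers was 153 to 216 CPM, 370 to 742 CPM and 821 to 1693 CPM in the same order. Fmr1CRE replicate 2 and wild-type replicate 3 had the lowest hindbrain sums of both lists and the lowest hindbrain Pvalb, at 312 and 354 CPM against 487 to 636 CPM in the other 4. For Calb1 the lowest hindbrain libraries were Fmr1CRE replicate 2 at 225 CPM, wild-type replicate 2 at 292 CPM and wild-type replicate 3 at 294 CPM. In the midbrain, Fmr1CRE replicate 2 and wild-type replicate 3 had the highest Purkinje sums, at 1592 and 1660 CPM against 828 to 1450 CPM. The part of cerebellar tissue in the levels of Pvalb, Calb1 and Calb2 was not tested.

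**Figure D2:**
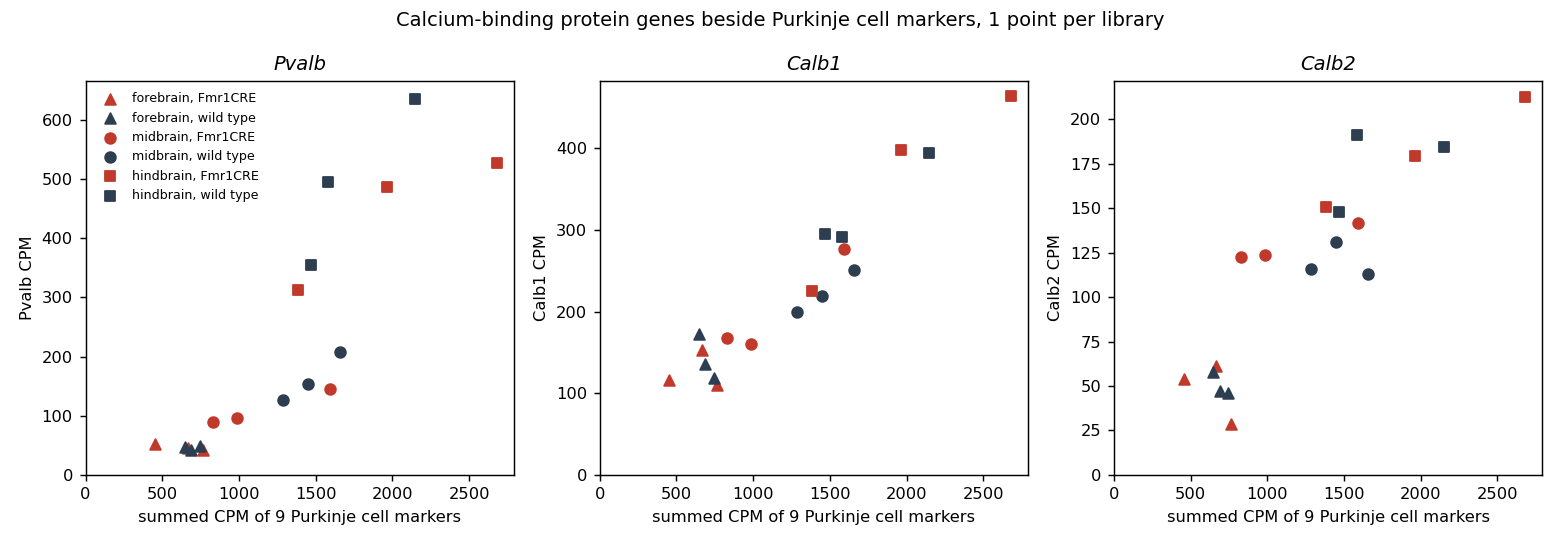
CPM of Pvalb, Calb1 and Calb2 (vertical axes) against the summed CPM of 9 Purkinje cell markers (horizontal axis) in each of the 18 libraries; triangles are forebrain, circles midbrain and squares hindbrain, in red for Fmr1CRE and dark for wild type. Forebrain libraries lie at a marker sum of 454 to 763 CPM and hindbrain libraries at 1384 to 2682 CPM, and the lowest hindbrain Pvalb values, 312 and 354 CPM, are those of the 2 hindbrain libraries with the lowest summed level of these markers.

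Lamp5, a lysosome-associated membrane protein of neurogliaform cells, had a pattern of its own. It had 88.4, 98.3 and 137 CPM in the forebrain, 37.8, 49.8 and 56.6 CPM in the midbrain, and 110, 125 and 168 CPM in the hindbrain. The midbrain lay below both other regions with no overlap, 2.16-fold below the forebrain (log2 difference of forebrain minus midbrain 1.11, SE 0.13, adjusted p = 1.91e-05) and 2.73-fold below the hindbrain (midbrain minus hindbrain -1.45, SE 0.13, adjusted p = 1.90e-07). Forebrain and hindbrain overlapped and differed 1.26-fold (-0.33, SE 0.12, adjusted p = 0.0323). That call did not hold with the mouse as a block (adjusted p = 0.0553) or without both forebrain libraries of replicate 3 (0.138), nor without the mouse of wild-type replicate 1 (0.0524), 2 (0.0693) or 3 (0.134) or of Fmr1CRE replicate 2 (0.160) or 3 (0.138). The highest forebrain value was that of Fmr1CRE replicate 1, the library with the low striatal markers.

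Reln, the secreted signal of Cajal-Retzius cells, layer 1 interneurons and granule cells, had 32.4, 45.3 and 60.5 CPM in the forebrain, 49.9, 78.5 and 107 CPM in the midbrain, and 48.8, 69.5 and 83.9 CPM in the hindbrain. All pairs of regions overlapped. The forebrain was 1.74-fold below the midbrain (-0.80, SE 0.18, adjusted p = 0.00637) and 1.52-fold below the hindbrain (-0.61, SE 0.18, adjusted p = 0.0113), and the second call was lost without the mouse of wild-type replicate 2 (adjusted p = 0.0570). Midbrain and hindbrain did not differ past the threshold (0.19, 95% confidence interval -0.19 to 0.58, adjusted p = 0.403). In the annotation 7 other genes overlap the Reln locus, and whether they share its reads was not tested.

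**Figure D3:**
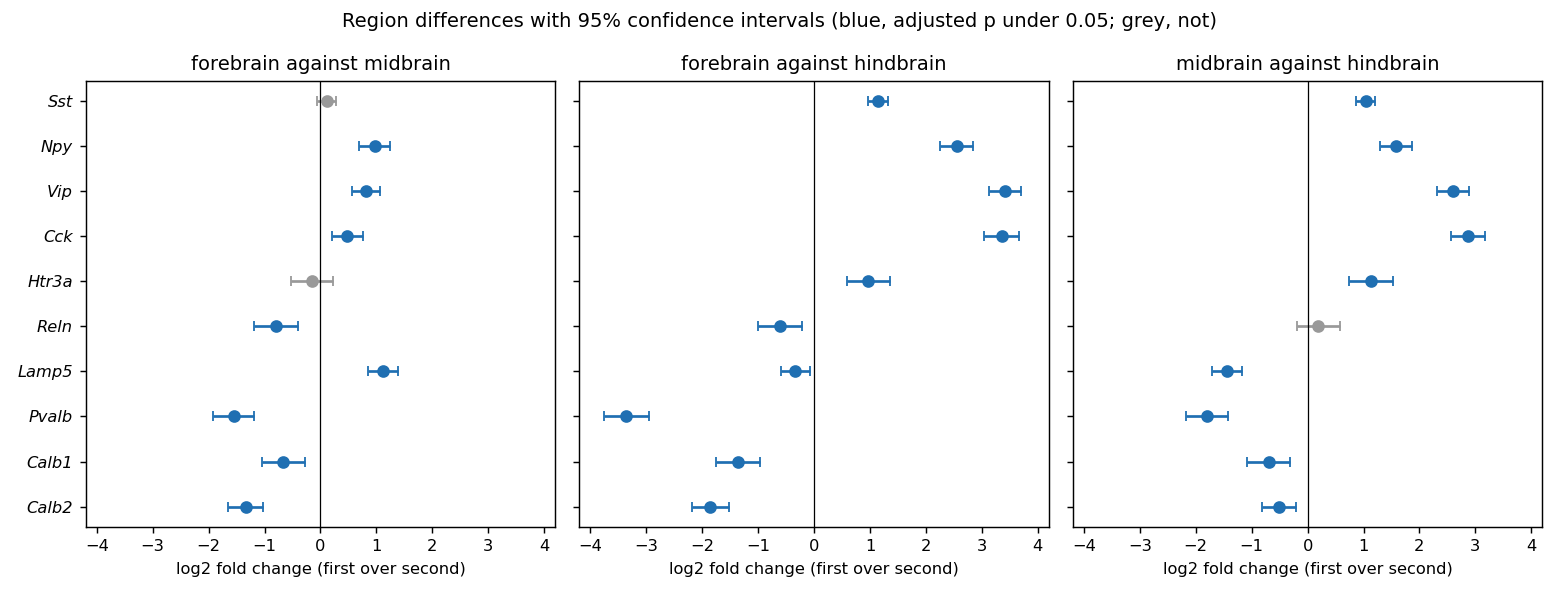
Log2 fold change of each marker between pairs of regions (horizontal axes, first region over second) with 95% confidence intervals from the edgeR fit of 18 libraries; blue marks an adjusted p under 0.05. Vip and Cck reach 3.42 and 3.36 for forebrain against hindbrain and Pvalb -3.36, while Sst and Htr3a are grey for forebrain against midbrain and Reln is grey for midbrain against hindbrain.

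Dividing CPM by effective length let the genes be ranked within a region. In the forebrain Cck was first at 434 ± 46.9 CPM per kilobase (SD, n = 6), followed by Sst at 200 ± 12.7 and Npy at 137 ± 11.5. Npy overlapped Lamp5, Calb1 overlapped Pvalb and Calb2 overlapped Vip, so the order within these pairs was not resolved. In the midbrain Cck again led at 310 ± 38.0 CPM per kilobase, with Sst at 186 ± 13.3 and Pvalb at 172 ± 54.5 overlapping each other. In the hindbrain Pvalb led at 591 ± 149 CPM per kilobase, the 3 genes Calb1, Lamp5 and Calb2 overlapped at 154 ± 39.6, 148 ± 23.8 and 140 ± 19.5, and Cck had dropped to sixth at 42.4 ± 10.1. Htr3a was last in every region, from 1.28 ± 0.193 CPM per kilobase in the hindbrain to 2.81 ± 0.713 in the midbrain. The effective length of Reln, 2686 bases, is uncertain, because 49.2% of its transcript-level abundance was assigned to an annotated transcript of 891 bases. For Cck the leading transcript held 43.6% on average and from 30.7% to 86.4% over the libraries. For Lamp5 it held 48.5% on average, so the lengths of Cck and Lamp5 are uncertain too.

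**Figure D4:**
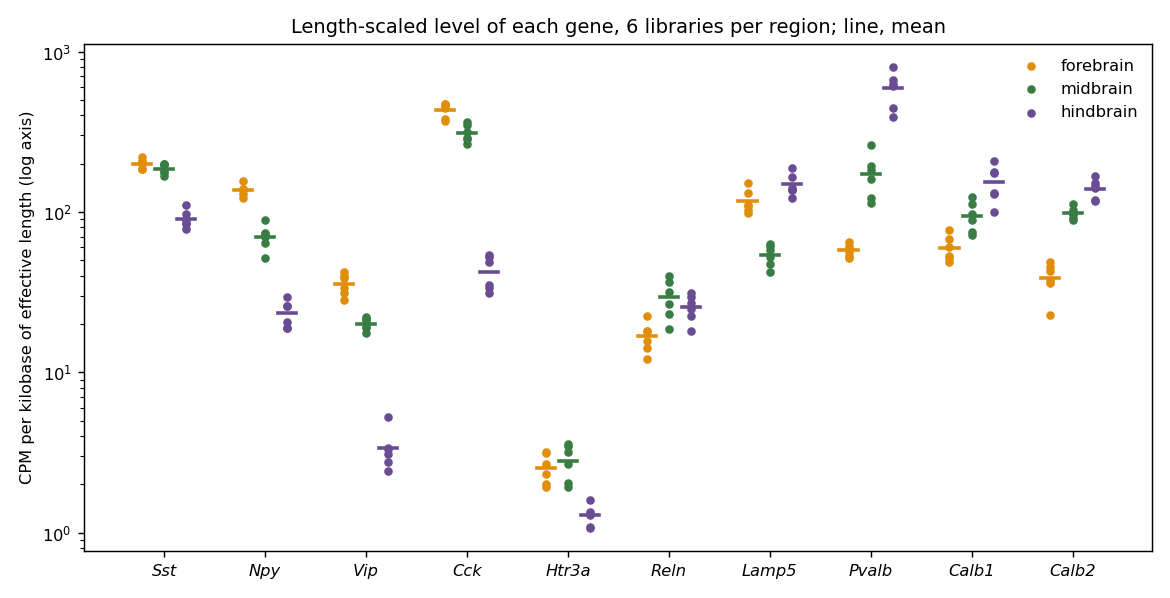
CPM per kilobase of effective length (log axis) of the 10 genes in the 6 libraries of each region, orange for forebrain, green for midbrain and purple for hindbrain, with the mean as a line. Cck leads in forebrain and midbrain at means of 434 and 310, Pvalb leads in the hindbrain at 591, and Htr3a is lowest in all 3 regions.

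The second question was whether the markers differed between Fmr1CRE and wild-type mice. None of the 10 passed an adjusted p of 0.05 in forebrain, midbrain or hindbrain by edgeR. Over all genes, 0% passed in the forebrain, 0.00543% in the midbrain (1 of 18400) and 0% in the hindbrain. At an unadjusted p under 0.05 there were 0 markers in the forebrain beside 5.43% of all genes, 1 in the midbrain beside 6.17%, and 1 in the hindbrain beside 5.13%, which are near the background shares. DESeq2 called 0 of the 10 as well, and 31, 62 and 59 of all genes in the same order of regions. With the 3 regions of a mouse summed, 0 of the 10 passed beside 0.00451% of all genes, and 0 at an unadjusted p under 0.05 beside 3.7%. The test of genotype by region called 0 of 20363 genes (0%) by edgeR, 1535 of them at an unadjusted p under 0.05 and 52 by DESeq2, with a smallest adjusted p among the markers of 0.703 for Vip. A p that misses the threshold does not show that the levels were equal, and the intervals give the sizes that remained possible.

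For Sst, the log2 difference of Fmr1CRE minus wild type was -0.02 in the forebrain (95% confidence interval -0.24 to 0.21), 0.08 in the midbrain (-0.14 to 0.29) and -0.14 in the hindbrain (-0.45 to 0.18). Summed over the regions of each mouse it was 0.01 (-0.15 to 0.16). For Npy the forebrain interval was -0.28 to 0.28 and for Cck -0.28 to 0.37. Wider intervals were found for Calb2 in the forebrain (-0.63 to 0.57) and Reln in the midbrain (-0.93 to 0.19).

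Pvalb in the midbrain had the largest difference among the markers that reached an unadjusted p under 0.05. The Fmr1CRE libraries held 89.9, 144 and 96.2 CPM in replicates 1, 2 and 3, and the wild-type libraries 127, 154 and 208 CPM. The groups overlapped, since Fmr1CRE replicate 2 lay above wild-type replicate 1. The log2 difference was -0.57 (SE 0.23, 95% confidence interval -1.11 to -0.03, unadjusted p = 0.0420 and adjusted p = 0.806 by edgeR), and leaving out each replicate moved it between -0.81 and -0.35. All 9 Purkinje cell markers also had a negative midbrain difference, with a median of -0.34, 1 of them at an unadjusted p under 0.05 and 0 past the adjusted threshold, and their sum was 828, 1592 and 987 CPM in Fmr1CRE and 1285, 1450 and 1660 CPM in wild type. Among these markers, Pcp2 had 25.4, 55.4 and 30.1 CPM in Fmr1CRE and 46.1, 65.8 and 90.9 CPM in wild type in replicates 1, 2 and 3. Pvalb differed less in the hindbrain (-0.17, 95% confidence interval -0.78 to 0.43) and in the forebrain (0.06, -0.25 to 0.36). The part of these markers in the midbrain difference was not tested.

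Lamp5 and Vip were the 2 markers whose genotypes did not overlap, both in the hindbrain, where 10.9% of all genes did not overlap. In the forebrain 0 of the 10 did not overlap beside 10.3% of all genes, and in the midbrain 0 beside 11.3%. Lamp5 had 110, 124 and 123 CPM in Fmr1CRE and 127, 150 and 168 CPM in wild type, a log2 difference of -0.33 (SE 0.12, 95% confidence interval -0.61 to -0.05, unadjusted p = 0.0261 and adjusted p = 0.875 by edgeR). Vip had 2.70, 3.03 and 2.36 CPM in Fmr1CRE and 3.26, 3.24 and 5.10 CPM in wild type, a log2 difference of -0.52 (SE 0.25, 95% confidence interval -1.11 to 0.06, adjusted p = 0.875 by edgeR). The wild-type mean of Vip rested largely on replicate 3, and the Vip difference was -0.28 without that library and between -0.64 and -0.44 without each of the other 5. Summed choroid plexus markers also differed between the same hindbrain libraries. In replicates 1, 2 and 3 they were 1419, 1380 and 1399 CPM in Fmr1CRE and 3261, 2634 and 919 CPM in wild type. Wild-type replicate 3, with the highest Lamp5 and Vip, had the lowest of these sums. The part of choroid plexus in either difference was not tested.

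**Figure D5:**
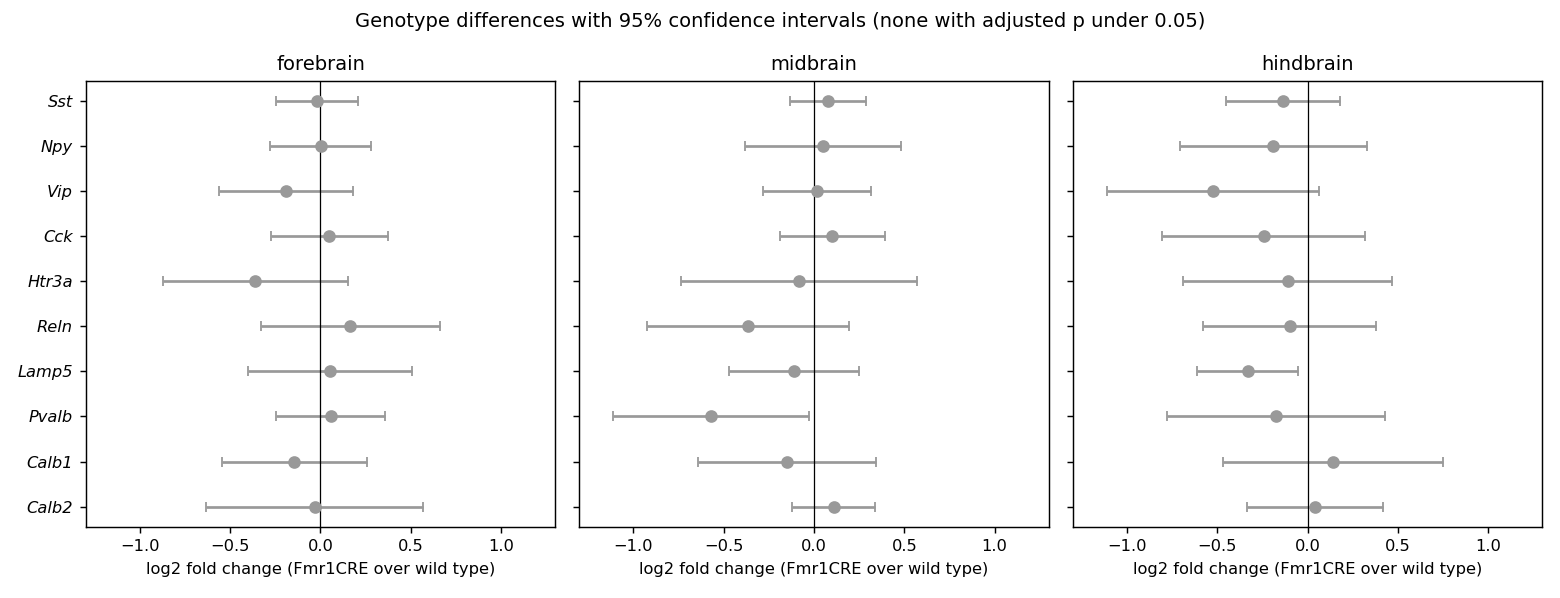
Log2 fold change of each marker between Fmr1CRE and wild type (horizontal axes) in forebrain, midbrain and hindbrain, with 95% confidence intervals from the edgeR fit of the 6 libraries of a region; grey marks that none had an adjusted p under 0.05. The intervals of Pvalb in the midbrain (-1.11 to -0.03) and Lamp5 in the hindbrain (-0.61 to -0.05) are those that leave out 0.

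Vip and Sst are also made in the hypothalamus, and hypothalamic markers differed between libraries of a region. Their sum over 10 genes was 7.07 to 69.9 CPM in Fmr1CRE and 56.8 to 106 CPM in wild-type forebrain, and 49.0 to 128 CPM in Fmr1CRE and 7.36 to 21.5 CPM in wild-type midbrain. In the midbrain all 10 had a positive difference and 9 an unadjusted p under 0.05 beside 6.17% of all genes, but 0 passed the adjusted threshold by edgeR and 4 by DESeq2. The midbrain difference of Vip was 0.02 (95% confidence interval -0.28 to 0.31) and the forebrain difference -0.19 (-0.56 to 0.18), which was -0.0066 without both forebrain libraries of replicate 3. The part of hypothalamic tissue in either was not tested.

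The receptors and partners of these markers were compared between the same regions. Of the 14 of 15 tested, 11 were higher in the forebrain than in the hindbrain with an adjusted p under 0.05 (26.4% of all genes), 13 were higher in the midbrain than in the hindbrain (25.1%), and 0 were lower in either comparison. The largest differences between forebrain and hindbrain were those of the Vip receptor Vipr1 (5.89, SE 0.35), the somatostatin receptors Sstr4 (3.45, SE 0.15) and Sstr2 (1.91, SE 0.18), and the cholecystokinin receptor Cckbr (2.62, SE 0.12), on the log2 scale. Between forebrain and midbrain 2 were higher beside 9.38% of all genes, Vipr1 (1.45, SE 0.27) and Cckbr (0.56, SE 0.11), and 2 were lower beside 9.96%, the neuropeptide Y receptor Npy2r (-0.77, SE 0.19) and the reelin receptor Vldlr (-0.31, SE 0.09). For genotype, 0 of the 14 passed in any region by edgeR or DESeq2, with 1 in forebrain, 0 in midbrain and 1 in hindbrain at an unadjusted p under 0.05, beside 5.43%, 6.17% and 5.13% of all genes.

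Genes of the lineages that give rise to these cells were compared between forebrain and hindbrain, where 26.4% of all genes were higher and 25.3% lower in the forebrain with an adjusted p under 0.05. Of 13 genes of medial ganglionic eminence interneurons, 9 were higher in the forebrain than in the hindbrain, led by Cort (6.79, SE 0.38), a peptide related to somatostatin, and Lhx6 (6.18, SE 0.29), a transcription factor of the lineage, and 3 were lower. Of 11 genes of caudal ganglionic eminence interneurons, 2 were higher, the transcription factors Sp8 (3.06, SE 0.34) and Npas1 (0.68, SE 0.17), and Crh (-0.58, SE 0.13), the corticotropin-releasing hormone gene, was lower. Among 9 GABA neuron genes 6 were higher in the forebrain, led by the transcription factors Dlx2 (7.69, SE 0.38), Dlx1 (7.50, SE 0.36) and Dlx6 (7.46, SE 0.38). For genotype, 0 genes of the 3 lists passed in any region by edgeR or DESeq2. In the midbrain, the region with the most, 3 of the medial list, 2 of the caudal list and 4 of the GABA list had an unadjusted p under 0.05, beside 6.17% of all genes. In the same midbrain libraries all 8 striatal neuron markers had a positive difference, with a median of 0.97 on the log2 scale, 4 of them at an unadjusted p under 0.05, and 0 passed the adjusted threshold by edgeR and 2 by DESeq2. The striatal sum was 223 to 484 CPM in Fmr1CRE and 158 to 210 CPM in wild-type midbrain, and its part was not tested.

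Each marker was also compared with all other genes by its pattern over the 18 libraries. The measure was the root mean square difference of log2 CPM after each gene was centred on its own mean, and smaller is more alike. Sst had the smallest values, for Jakmip1 at 0.10 and Syt13 at 0.11, where the median over all genes was 0.65. That median ran from 0.60 for Reln to 1.55 for Cck. The measure is not scaled to the size of a gene's differences, so values of different markers are not directly comparable. Npy was nearest to Dusp14 at 0.17, Htr3a to Lingo2 at 0.19, Calb1 to the AMPA receptor subunit gene Gria4 at 0.20 and Reln to Trim62 at 0.21. Vip was nearest to Dbpht2 at 0.21, Lamp5 to Ighm at 0.22, Calb2 to St18 at 0.24, Pvalb to Asgr1 at 0.28 and Cck to Mmp17 at 0.28. The second nearest were Cacnb3 for Npy, Clstn1 for Htr3a, Trmt9b for Calb1, Pde3a for Reln, Rab40b for Vip, Crh for Lamp5, Mreg for Calb2, Gm2694 for Pvalb and 9330121K16Rik for Cck. Among the markers themselves, by the same unscaled measure, Sst and Htr3a were the closest pair at 0.25, then Vip and Cck at 0.32. Pvalb and Cck were the farthest apart at 2.83.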

How the data were processed

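Poly(A) RNA of 3 regions of 6 mice was sequenced. The authors quantified transcripts with salmon (version 0.14.0 per the submitters' processing notes, which also name DESeq2 1.30.1 and mm10) in bcbio_nextgen and deposited rounded gene counts without normalization. The deposited transcript TPM and effective lengths were used only pooled over all libraries, to weight the length of each gene. A deposited table of variance-stabilized values was not used. Sequencing used 2 pools whose members are not given in the sources used here, and their part was not tested.

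Symbols and positions came from GENCODE M21 (GRCm38), and promoter sequences from RefSeq. Counts without a symbol made up 0.0151% of all. Counts were tested in R 4.3.3 with edgeR 4.0.16 (TMM, filterByExpr, quasi-likelihood test, Benjamini-Hochberg at 0.05). Genotypes were compared in the 6 libraries of a region, in counts summed per mouse and, by region, in the interaction. Regions were compared in 1 fit of 18 libraries. Depth was 22455512 to 28061185 counts, and counting error and the spread between mice were not separated. Alternatives were DESeq2 1.42.0, other filters and scaling, each replicate left out and a replicate block. On simulated genotype counts in the forebrain, with 200 of 18210 genes changed by 1.5 on the log2 scale, 71.5% were recovered. The same change was recovered for 78% in midbrain, 68.5% in hindbrain and 51% in the interaction. Changes as small as the genotype differences of the markers were not simulated.

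The members and gene lists were chosen with earlier results of these data known. The genes named were the 10 markers, up to 4 genes of a list with the largest called log2 fold changes, and the 2 genes most like each marker. Every measured column of the count table was used.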

Additional observations from a re-analysis of the deposited data

How the results depend on the processing

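The region differences of the 10 markers kept their direction under every alternative run, and 0 markers were called for genotype under any of them. Counts of called genes between genotypes moved with the test and the filter. DESeq2 called 31 genes in forebrain, 62 in midbrain, 59 in hindbrain, 26 in the summed counts and 52 in the interaction. With no filter on low counts these were 11 in midbrain, 11 in hindbrain, 4 in the summed counts and 7 in the interaction. Requiring at least 10 counts in every library gave 0 in midbrain, and 1 fit of all 18 libraries gave 1 in forebrain, 0 in midbrain and 1 in hindbrain. Without both forebrain libraries of replicate 3 the interaction called 4, and summing midbrain and hindbrain alone called 3. The cause of these changes was not tested. Between forebrain and midbrain, 1729 genes were called in wild-type libraries only and 527, with 5 of the 10 markers, in Fmr1CRE libraries only. Each of these fits used 3 mice, and so fewer samples than the fit of all 18 libraries. Why their counts differ from each other was not tested. Fmr1CRE libraries alone called 6178 genes between forebrain and hindbrain and 4847 between midbrain and hindbrain. They lost the calls of Calb1, Cck and Reln between forebrain and midbrain, of Lamp5 and Reln between forebrain and hindbrain, and of Calb1 and Calb2 between midbrain and hindbrain, and wild-type libraries alone lost that of Cck between forebrain and midbrain.

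Deviations of same-numbered libraries of the 2 genotypes correlated between -0.12 and 0.07. Those of libraries labelled as the same mouse correlated between -0.17 and 0.18. The measure therefore cannot show whether replicate numbers pair the genotypes. With the replicate block the summed counts called 0 genes in place of 1. The mouse as a block in the region fits changed only the call of Lamp5 between forebrain and hindbrain among the markers.

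Leaving out 1 replicate at a time gave 0 to 4 calls in midbrain, 0 to 5 in hindbrain, 2258 to 4001 between forebrain and midbrain, 0 to 4 in the interaction and 0 in the summed counts. Genotype differences that changed sign were all uncalled. With each replicate left out, or both forebrain libraries of replicate 3, the forebrain log2 difference ran from -0.089 to 0.019 for Sst, -0.057 to 0.146 for Pvalb, -0.201 to 0.170 for Lamp5, -0.040 to 0.154 for Cck, -0.075 to 0.099 for Npy, -0.280 to 0.231 for Calb2, -0.059 to 0.360 for Reln and -0.397 to 0.021 for Calb1. In midbrain it ran from -0.249 to 0.018 for Lamp5, -0.328 to 0.113 for Htr3a, -0.053 to 0.108 for Vip and -0.137 to 0.236 for Npy. In hindbrain it ran from -0.093 to 0.165 for Calb2, -0.081 to 0.397 for Calb1, -0.369 to 0.060 for Pvalb, -0.310 to 0.042 for Reln and -0.236 to 0.044 for Htr3a. In the summed counts it ran from -0.030 to 0.141 for Calb2, -0.082 to 0.079 for Calb1, -0.042 to 0.088 for Npy and -0.038 to 0.057 for Sst. Npy in forebrain was -0.0069 with no filter, -0.0100 without both replicate 3 libraries and -0.0303 in 1 fit of all libraries. In the summed counts Calb1 was -0.0016 with DESeq2 and -0.0016 with its size factors, and with no filter Calb1 was -0.0092, Sst -0.0033 and Npy -0.0036, and with the replicate block Calb1 was -0.0042.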
